A study of Mus musculus with 52 samples.

Results

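The transcription factors Pax2, Pax8, Lhx1, Gata3, Emx2, Sall1, Tfcp2l1, Grhl2 and Foxd1 were followed in a mouse kidney collecting duct line, in 13 sets of libraries that each hold a labelled clone in 1 state and are called clones here, although the same clone may stand in both states. These 9 genes were picked by name for their roles in the kidney tubule and its surroundings, they are 9 of the 24421 gene symbols counted, and all 9 are in every count file. The host line was Cilia-APEX-IMCD3, an inner medullary collecting duct line. By the study's methods, the clones had received the cytosine base editor BE4-Gam, controls together with a guide vector that lacked a target sequence. RNA was sequenced in 4 technical replicate libraries per clone, 52 in all, so that libraries of a clone are not independent samples. Where a group holds several clones, its spread in the tests includes that between clones, and where it holds 1 clone, only that between its libraries.

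Of the 6 clones sequenced without cilia, the mutants were a Wdr60 clone with p.Ala911Val and a Wdr34 clone with p.Arg183Trp, and the 4 controls were called AB, 1, 2 and 3. Of the 7 ciliated ones, 1 mutant again carried Wdr60 p.Ala911Val, 2 were Wdr34 clones with the numbers 1 and 3, and the 4 controls were called A4, D8, G7 and H12. Wdr34 and Wdr60 encode intermediate chains of dynein-2, the motor of retrograde transport in cilia. Both Wdr34 alleles of the study, p.Arg183Trp and p.Gly394Ser, were edited in these cells, but the labels do not say which of them Wdr34 clone 1 or clone 3 carries, nor what AB stands for, nor whether a clone of one state was also sequenced in the other. The sample titles of the non-ciliated clones other than AB begin with BE, but those of AB and of the ciliated clones do not. The labels alone therefore do not show that AB received the editor. Each genotype is 1 or 2 clones, so genotype and clone cannot be told apart in a single-clone comparison. The study's methods give low serum for ciliated cells, whereas every sample label reads 10% FBS, in both states. The states were sequenced in different rounds, so that state, any difference in serum and sequencing round cannot be told apart.

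Pax2 and Pax8 are paired-box factors that set up the nephric lineage and stay on in tubule epithelium, and Lhx1, Emx2, Gata3 and Sall1 act with them in the nephric duct, the ureteric bud and the mesenchyme around it. Tfcp2l1 and Grhl2 are grainyhead-family factors of the maturing collecting duct, where Tfcp2l1 patterns principal and intercalated cells and Grhl2 keeps up junction and barrier genes such as Cdh1, Cldn4 and Rab25. Foxd1 is different, because in the developing kidney it marks the stromal progenitors around the tubules and not the tubule itself.

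The library totals ranged from 14816218 to 28084979 counts, which set the precision of the values below. Levels are CPM (counts-per-million), scaled by TMM over all 52 libraries. By the library totals alone, before this scaling, 1 CPM stood for 14.8 to 28.1 counts. The label of the line was checked against marker genes. Markers of epithelium (Cdh1, Epcam, Krt8, Krt18, Krt19 and Cdh16) summed to 2370 to 4370 CPM in 10 clones, but to 458 CPM in control clone 2, 980 CPM in control clone G7 and 1480 CPM in Wdr34 clone 3. Of these low sums Cdh16 alone made 266, 841 and 589 CPM, and each of the other 5 markers was lower in clones 2 and G7 than in any of the 10 clones. Markers of collecting duct principal cells summed to only 1.76 to 11.4 CPM, and Aqp2, the water channel that defines them, had at most 1 count in any library. Markers of intercalated cells summed to 0.121 to 2.71 CPM, with Foxi1 at 0 in all 52 libraries. Stroma markers summed to 6.09 to 41.6 CPM, highest in Wdr34 clone 3, where Dcn alone made 29.2 CPM, and of them Tcf21 was at 0 in all libraries. Proximal tubule markers summed to 16 to 450 CPM and were highest in G7 and in clone 2 (285 CPM), through the endocytic receptor Lrp2. Podocyte markers summed to 15 to 137 CPM, thick ascending limb markers to at most 9.73, macrophage markers to 0.859 to 5.45 and endothelial markers to at most 0.138 CPM. The edits are missense changes, so the RNA of the edited genes checks no label, and Wdr34 was at 21.7 to 49.5 CPM and Wdr60 at 20.4 to 30.8 CPM over the 13 clones.

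The promoters of 3 members and of 1 gene downstream of them are shown because the text turns on Foxd1, on Pax2 and Tfcp2l1 and on genes of epithelial junctions. They were taken from RefSeq on GRCm38.p6 and run from 250 bases before the start site to 50 bases from it. Promoters were found for 8 of the 9 members, 12 in all, and for 9 of 14 downstream genes. Searched on both strands were a grainyhead site, AACCGGTT, its looser form AACNNGTT, a forkhead site, GTAAACA, and the E-box CACCTG, which Zeb and Snai repressors bind. Capitals mark matches to AACNNGTT, GTAAACA or CACCTG. The first, of Foxd1 (chr13:98353995-98354294, plus strand), holds none of them. In the second promoter of Pax2 (chr19:44755502-44755801, plus strand) AACCAGTT begins at -203 from the start site. That of Tfcp2l1 (chr1:118627695-118627994, plus strand) holds CAGGTG at -120 and CACCTG at -40. That of Rab25 (chr3:88548230-88548529, minus strand), a small GTPase of epithelial membrane traffic, holds AACCTGTT at -102, CACCTG at -64 and CAGGTG at -53.
Foxd1: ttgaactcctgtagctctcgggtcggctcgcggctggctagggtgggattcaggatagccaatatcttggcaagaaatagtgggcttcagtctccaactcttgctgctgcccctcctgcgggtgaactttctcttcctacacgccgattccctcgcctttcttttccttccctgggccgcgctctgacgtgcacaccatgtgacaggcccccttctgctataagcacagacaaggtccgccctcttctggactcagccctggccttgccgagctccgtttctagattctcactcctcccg
Pax2: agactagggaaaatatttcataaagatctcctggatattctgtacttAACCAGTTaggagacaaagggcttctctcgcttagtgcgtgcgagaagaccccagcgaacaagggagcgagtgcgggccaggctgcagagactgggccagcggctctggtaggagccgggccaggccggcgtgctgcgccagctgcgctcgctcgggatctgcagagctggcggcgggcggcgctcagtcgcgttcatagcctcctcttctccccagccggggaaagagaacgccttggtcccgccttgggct
Tfcp2l1: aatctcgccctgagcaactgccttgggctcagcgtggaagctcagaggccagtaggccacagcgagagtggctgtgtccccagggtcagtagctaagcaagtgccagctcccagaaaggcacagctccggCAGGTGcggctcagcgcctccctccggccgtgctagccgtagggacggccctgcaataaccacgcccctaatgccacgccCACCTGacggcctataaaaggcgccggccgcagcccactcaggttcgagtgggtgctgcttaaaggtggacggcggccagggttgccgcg
Rab25: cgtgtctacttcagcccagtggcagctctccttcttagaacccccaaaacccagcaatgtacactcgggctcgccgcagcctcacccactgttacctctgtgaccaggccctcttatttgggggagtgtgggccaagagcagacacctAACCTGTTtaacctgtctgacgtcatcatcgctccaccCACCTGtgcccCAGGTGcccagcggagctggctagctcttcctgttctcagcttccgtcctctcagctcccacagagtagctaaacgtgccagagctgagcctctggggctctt

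AACCGGTT was in no promoter of a member and in 0.146% of all 32851 promoters. AACNNGTT was in 1 of the 12 member promoters (of Pax2), against 4.2% of all promoters, and GTAAACA was in none, against 3.65%. CACCTG was in 3 of the 12, 1 each of Pax2, Pax8 and Tfcp2l1, against 20.2% of all promoters. Among the downstream genes AACNNGTT was in Rab25, GTAAACA in Etv5, and CACCTG in Wnt9b, Cldn4, Rab25 and Epcam. These matches are letters in a window and not measured binding.

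Levels per length of exon differed widely between members. Pax8 was highest, with a median over the 13 clones of 45.3 CPM per kb, followed by Pax2 and Emx2, both at 22.8 CPM per kb. Tfcp2l1 had a median of 11.8 CPM per kb, Grhl2 10.7, Sall1 5.56 and Foxd1 2.98. Gata3 at 0.0739 and Lhx1 at 0.0462 CPM per kb were near the lower end of detection. The clones spread least in Sall1, from 4.09 to 8.81 CPM per kb, and most among the well-detected members in Foxd1, from 0.662 to 30, and Grhl2, from 0.462 to 17.6.

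**Figure D1:**
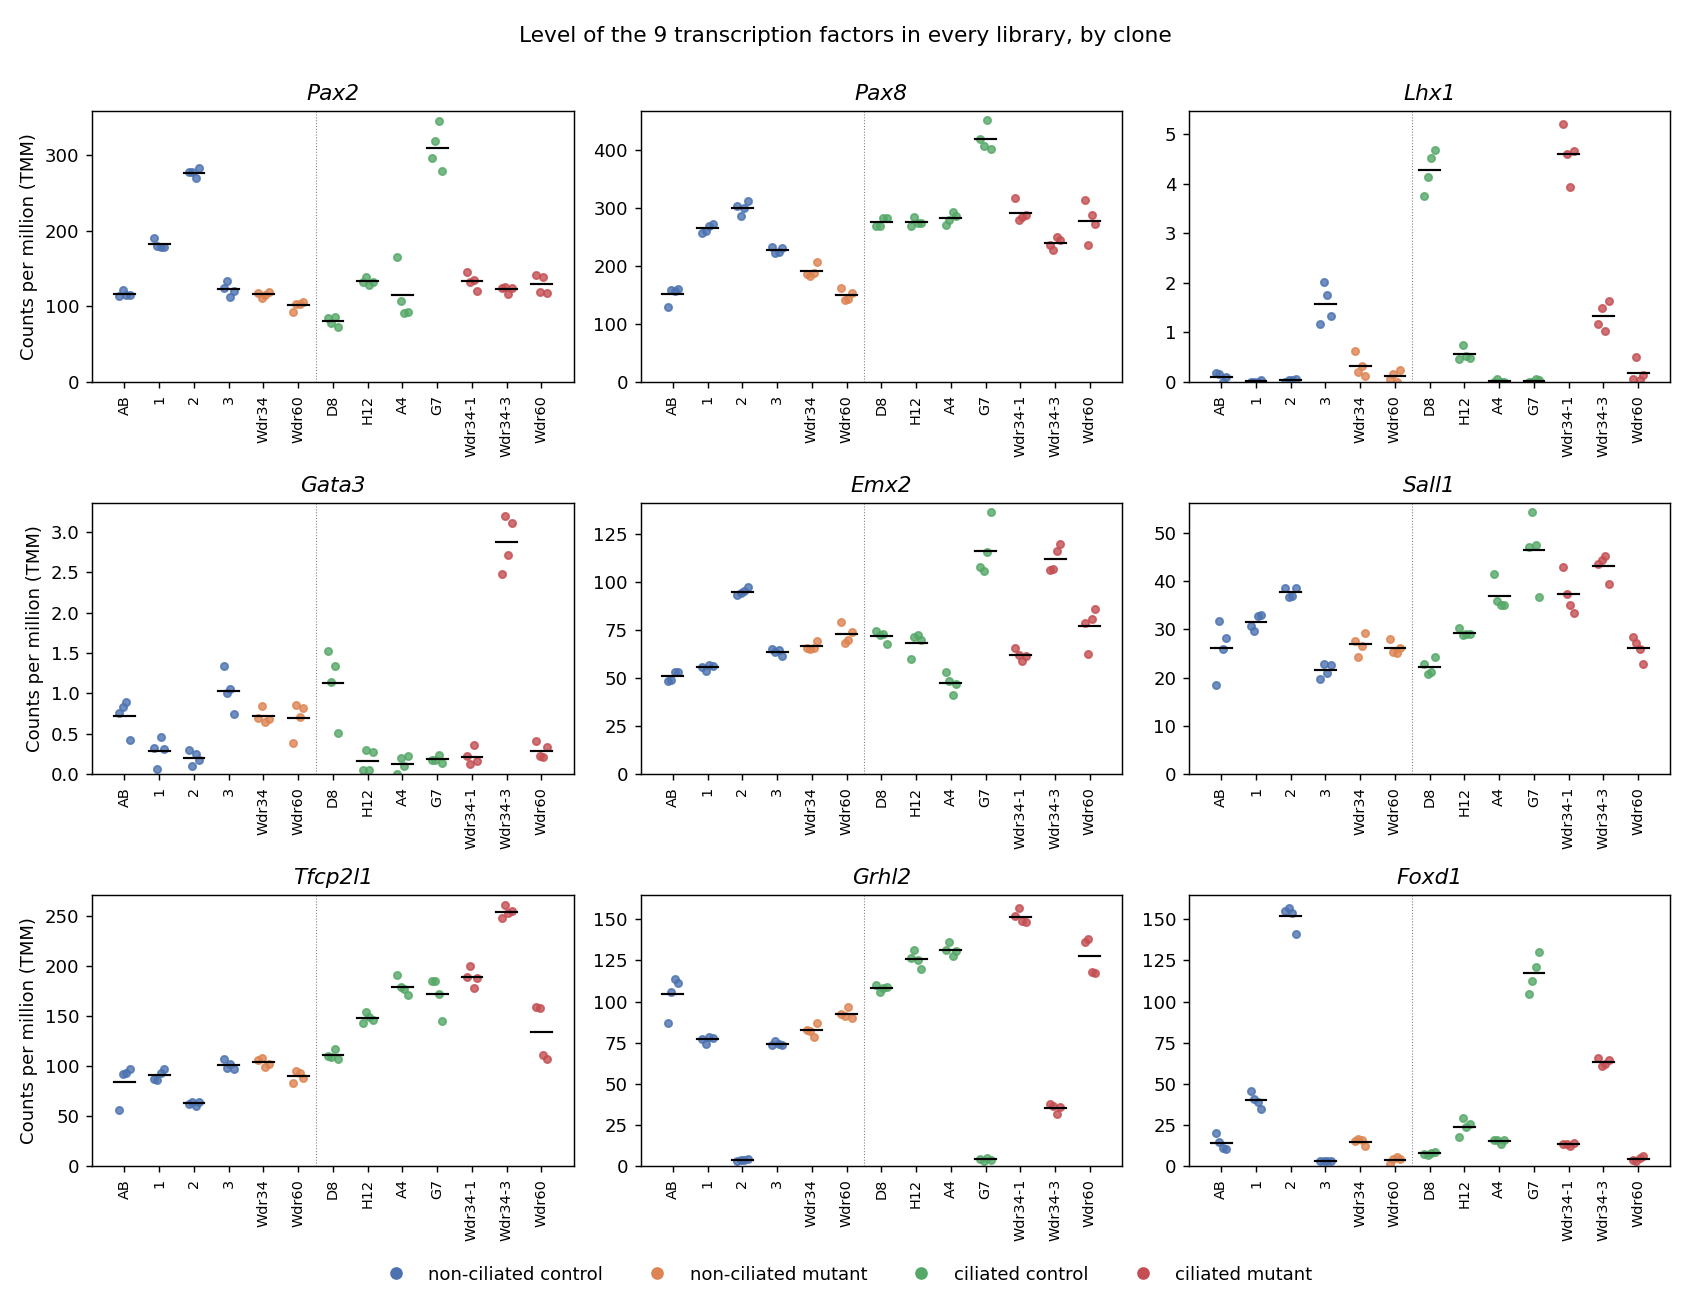
Level of each of the 9 members in the 52 libraries, in TMM-scaled CPM on a linear axis from 0 that differs between genes, with 1 point per library (4 per clone), the clone mean as a bar and colours for state and genotype (Wdr34-1 and Wdr34-3 are Wdr34 clones 1 and 3). Control clones 2 and G7 stand low for Grhl2 (3.98 and 4.23 CPM) and high for Foxd1 (152 and 117 CPM).

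Foxd1 (chr13:98354245-98356705 in GRCm38, plus strand, a single exon) encodes a forkhead factor of kidney stroma. In non-ciliated controls its lowest library was at 3.02 CPM, the median at 27.7 CPM and the highest at 157 CPM (16 libraries). Control clone 3 averaged 3.35 CPM ± 0.246 (SD, n = 4 libraries), clone AB 14.3 CPM ± 4.46 and clone 1 40.3 CPM ± 4.55. Control clone 2 was far above them, with 155.2, 156.8, 154 and 141.1 CPM in its 4 libraries. These clones did not overlap in any library, and the fold between the lowest and the highest clone mean was 45.3. Ciliated controls were also wide apart, since D8 averaged 7.87 CPM ± 0.637, A4 15.5 CPM ± 1.39, H12 24.1 CPM ± 4.93 and G7 117 CPM ± 10.9. The 4 libraries of G7 were at 104.8, 112.7, 121.2 and 130.1 CPM, all above every other ciliated library.

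Mutant clone means lay inside the range of the control clones, except for ciliated Wdr60, which was below it. In non-ciliated cells the Wdr34 clone averaged 15.1 CPM ± 1.91, and the Wdr60 clone 4.0 CPM ± 1.90, with libraries at 1.22, 4.77, 5.49 and 4.53 CPM. The first of them was below every non-ciliated control library, but it also stood apart from the others of its clone over all genes. In ciliated cells Wdr60 was again low, at 4.06, 3.14, 4.88 and 6.26 CPM, below every ciliated control library. Wdr34 clone 1 averaged 13.6 CPM ± 0.876, whereas Wdr34 clone 3 reached 66.1, 60.8, 62.1 and 64.3 CPM, between H12 and G7.

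Grhl2 (chr15:37232821-37363569, plus strand) encodes a factor that activates epithelial junction genes, and it was lowest in the 2 control clones that were highest for Foxd1. In non-ciliated controls its libraries ran from 3.3 CPM over a median of 75.5 CPM to 114 CPM. Clone AB averaged 105 CPM ± 12.1, clone 1 77.2 CPM ± 1.76 and clone 3 74.5 CPM ± 1.25, but clone 2 had 3.3, 4.18, 4.15 and 4.3 CPM. Among ciliated controls D8 averaged 108 CPM ± 1.96, H12 126 CPM ± 4.83 and A4 132 CPM ± 3.52, whereas G7 had 4.39, 3.4, 5.24 and 3.9 CPM. Clones 1 and 3 overlapped and H12 and A4 overlapped, but clones 2 and G7 lay apart from every other clone. The 2 non-ciliated mutants averaged 82.7 CPM ± 3.66 (Wdr34) and 92.4 CPM ± 2.86 (Wdr60). The ciliated mutants averaged 152 CPM ± 3.84 (Wdr34 clone 1) and 127 CPM ± 11.4 (Wdr60), and only Wdr34 clone 3 among them was low, at 38.1, 36.6, 31.9 and 35.9 CPM.

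Several epithelial genes were low in the same 2 control clones, but not Cdh16. Cdh1, the adhesion protein E-cadherin, was at 4.22 CPM in clone 2 and 14.4 CPM in G7, against 242 to 649 CPM in the other 11 clones. Epcam, an epithelial adhesion molecule, was at 2.86 and 13.5 CPM, against 183 to 837 CPM. The tight junction gene Cldn4 was at 9.52 and 3.31 CPM, against 197 to 1930 CPM, and Rab25, whose promoter is given above, at 0.344 and 0.438 CPM, against 3.34 to 21.4 CPM. Esrp1, an epithelial splicing factor, was at 0.928 and 2.17 CPM, against 82.7 to 204 CPM. Cdh16, the kidney-specific cadherin, went the other way, at 841 CPM in G7, the highest of the 13 clones, and 266 CPM in clone 2, the highest of the 6 non-ciliated clones. Zeb1, a repressor of epithelial genes that binds the E-box, was highest in clone 2 (81.7 CPM), G7 (70.6 CPM) and Wdr34 clone 3 (67.5 CPM), followed by control clone 1 (38.9 CPM), and between 0.205 and 26.2 CPM in the others. Ovol2, a repressor of Zeb1, had no count in clones 2 and G7. These values move with Grhl2 and Foxd1, and their part in those differences was not tested. In bulk RNA, fewer cells of a type and less RNA per cell cannot be told apart.

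**Figure D2:**
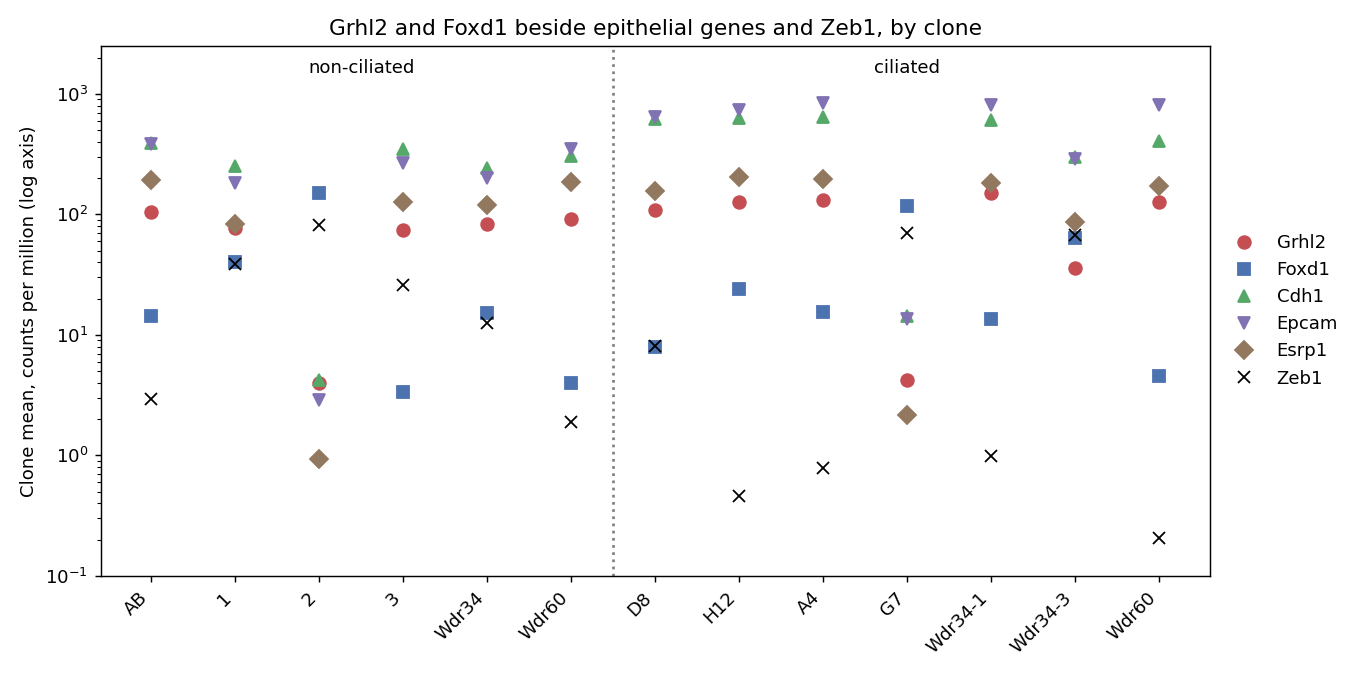
Mean level of Grhl2, Foxd1, the epithelial genes Cdh1, Epcam and Esrp1, and Zeb1 in each of the 13 clones, in TMM-scaled CPM on a log axis, with 1 symbol per gene and the mean of 4 libraries per point. In control clones 2 and G7 Foxd1 (152 and 117 CPM) and Zeb1 (81.7 and 70.6 CPM) lie above Grhl2 (3.98 and 4.23 CPM) and the 3 epithelial genes drawn, and in Wdr34 clone 3 Foxd1 (63.3 CPM) also lies above Grhl2 (35.6 CPM).

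Across the 13 clones the Pearson correlation of log2 CPM between Grhl2 and Foxd1 was -0.77, and without clones 2 and G7 it was -0.414 over the other 11. The same pair of clones carried most of the relation of Pax2 with Grhl2, which was -0.852 over 13 clones and -0.113 over 11. Sall1 and Foxd1 were at 0.809 and 0.739. The genes most like Grhl2 in their clone means, among 12947, were Tmem184a (r = 0.989 over 13 clones and 0.929 over 11), Cblc (0.989 and 0.936) and St14 (0.987 and 0.96), of which St14 encodes the epithelial membrane protease matriptase. Those most like Foxd1 were Hps3 (0.961 and 0.931), Lifr, a cytokine receptor (0.948 and 0.912), and C1qtnf6 (0.919 and 0.836). The points share libraries and the same line, and these values are descriptions without a test.

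Pax2 (chr19:44746601-44838269, plus strand) and Pax8 (chr2:24420551-24475599, minus strand), the nephric lineage factors, were on in all 13 clones. For Pax2 the highest clones were again G7, with 295.7, 318.7, 344.8 and 278.9 CPM, and clone 2, with 277.8, 277.5, 269.9 and 282.4 CPM. These 2 clones overlapped each other and lay above all others. Control clone 1 came next at 182 CPM ± 6.04, then 9 clones between 102 and 133 CPM, each overlapping its neighbour in this order, and D8 was lowest at 80.6 CPM ± 6.07. In A4 1 library (165.9 CPM) was high against the other three (91.59 to 107.3 CPM). The gene 1700039E22Rik lies antisense to Pax2 and Mir6405 inside it, and without a stated strand setting their reads cannot be told apart from those of Pax2. Pax8 followed a flatter course, from 150 CPM ± 9.83 in the non-ciliated Wdr60 clone and 152 CPM ± 14.5 in AB to 300 CPM ± 10.7 in clone 2 and 419 CPM ± 22.3 in G7.

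Emx2 (chr19:59458690-59465357, plus strand), a homeobox factor of the ureteric bud, ranged from 47.5 CPM ± 4.96 in A4 to 116 CPM ± 13.9 in G7. Wdr34 clone 3 (112 CPM ± 6.79) overlapped with G7, and clone 2 (94.9 CPM ± 1.79) was the highest non-ciliated clone. Emx2os runs antisense to Emx2, with the same limit on strand. Sall1 (chr8:89027242-89044162, minus strand), a zinc finger factor of nephron progenitors, ranged from 21.5 CPM ± 1.46 in clone 3 to 46.4 CPM ± 7.29 in G7, with Wdr34 clone 3 at 43.1 CPM ± 2.54 and clone 2 at 37.7 CPM ± 1.06. The gene most like Emx2 over the 13 clones was Eya1 (r = 0.924), a co-activator of the nephrogenic mesenchyme that was highest in Wdr34 clone 3 (120 CPM) and G7 (72 CPM).

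Tfcp2l1 (chr1:118627923-118685168, plus strand), the collecting duct patterning factor, was the 1 member whose control clones separated by state, where 23.1% of all genes did. In non-ciliated controls the means were 84.9 CPM ± 19.2 (AB), 91.1 CPM ± 5.31 (1), 63.1 CPM ± 1.83 (2) and 102 CPM ± 4.18 (3). In ciliated controls they were 111 CPM ± 4.13 (D8), 148 CPM ± 4.68 (H12), 180 CPM ± 8.44 (A4) and 172 CPM ± 19.1 (G7), so that no clone mean overlapped between the states. G7, low for Grhl2, was not low for Tfcp2l1, whereas clone 2, also low for Grhl2, had the lowest Tfcp2l1 mean of all clones. The ciliated mutants were at 134 CPM ± 28.9 (Wdr60), 189 CPM ± 9.12 (Wdr34 clone 1) and 254 CPM ± 5.29 (Wdr34 clone 3), of which the last was above every other clone. The non-ciliated mutants were at 104 CPM ± 4.0 (Wdr34) and 90.2 CPM ± 5.29 (Wdr60).

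Lhx1 and Gata3 had few counts, and are given as counts per library. Lhx1 (chr11:84517975-84525534, minus strand), a LIM homeobox factor of the nephric duct and early nephron, had 54, 69, 74 and 74 counts in D8 and 94, 74, 66 and 85 in Wdr34 clone 1. Control clone 3 had 20, 36, 35 and 27, Wdr34 clone 3 20, 26, 19 and 36, and H12 9, 15, 11 and 9. The remaining 8 clones had 0 to 10 counts per library, which is 0 counts in 3 of 4 libraries of control clone 1 and of A4. A count of 0 allows up to 3 counts in a library, so Lhx1 was not detectable there at this depth. Lhx1os, named as the opposite-strand gene of Lhx1, had the pattern most like it (r = 0.979 over 13 clones). In the GENCODE genes searched none overlapped Lhx1, and whether the pair shares reads was not tested.

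Gata3 (chr2:9857078-9887953, minus strand), a zinc finger factor of the nephric duct and the collecting duct, was highest in Wdr34 clone 3, with 42, 56, 50 and 68 counts. Control clone D8 had 22, 19, 22 and 8 counts and control clone 3 had 23, 18, 21 and 15. All other clones had 18 counts or fewer in each library, and 1 library of A4 had none. The genes 4930412O13Rik and 9230102O04Rik overlap Gata3, and their reads could be split with it.

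The differences among control clones, none of which is labelled with an edited allele, were then tested. By edgeR's F test over clones with Benjamini-Hochberg adjustment, 8 of 8 members tested differed among the ciliated controls, where 85.4% of all genes tested did, and 9 of 9 among the non-ciliated controls, where 80.5% did. Gata3 was not tested in ciliated controls because its counts fell under the filter. Lhx1 passed the filter through the clones where it was high, D8 and control clone 3, so it had to differ. Lhx1 and Foxd1 are in both counts of members, and nothing is read from these counts. The error in this test is that between technical replicate libraries of a clone and holds no error between clones. Since most genes differed, the size of the spread tells members apart better than the call. The median range between the highest and lowest control clone over all genes was 0.601 in non-ciliated and 0.708 in ciliated cells (log2 CPM). Foxd1 was included with its spread between control clones already known, so its place among the genes is a description. It spread 45.3-fold in non-ciliated controls, more than 98.96% of genes, and 14.9-fold in ciliated controls, more than 95.86%. Grhl2 spread 26.3-fold (98.13%) and 31.1-fold (97.68%). Lhx1 was past 96.62% and 98.01% of genes, at counts where the range depends on the prior count added. It was ranked only through its high clones, so its place is a description too. Gata3, tested in non-ciliated controls alone, spread 4.99-fold (89.28%), and Pax2 2.38-fold (81.76%) and 3.84-fold (87.11%). The other members spread less, Emx2 1.86-fold (70.09%) and 2.45-fold (76.76%), Pax8 1.98-fold (74.07%) and 1.53-fold (41.7%), Sall1 1.75-fold (64.83%) and 2.09-fold (68.86%), and Tfcp2l1 1.61-fold (56.95%) and 1.62-fold (48.56%).

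**Figure D3:**
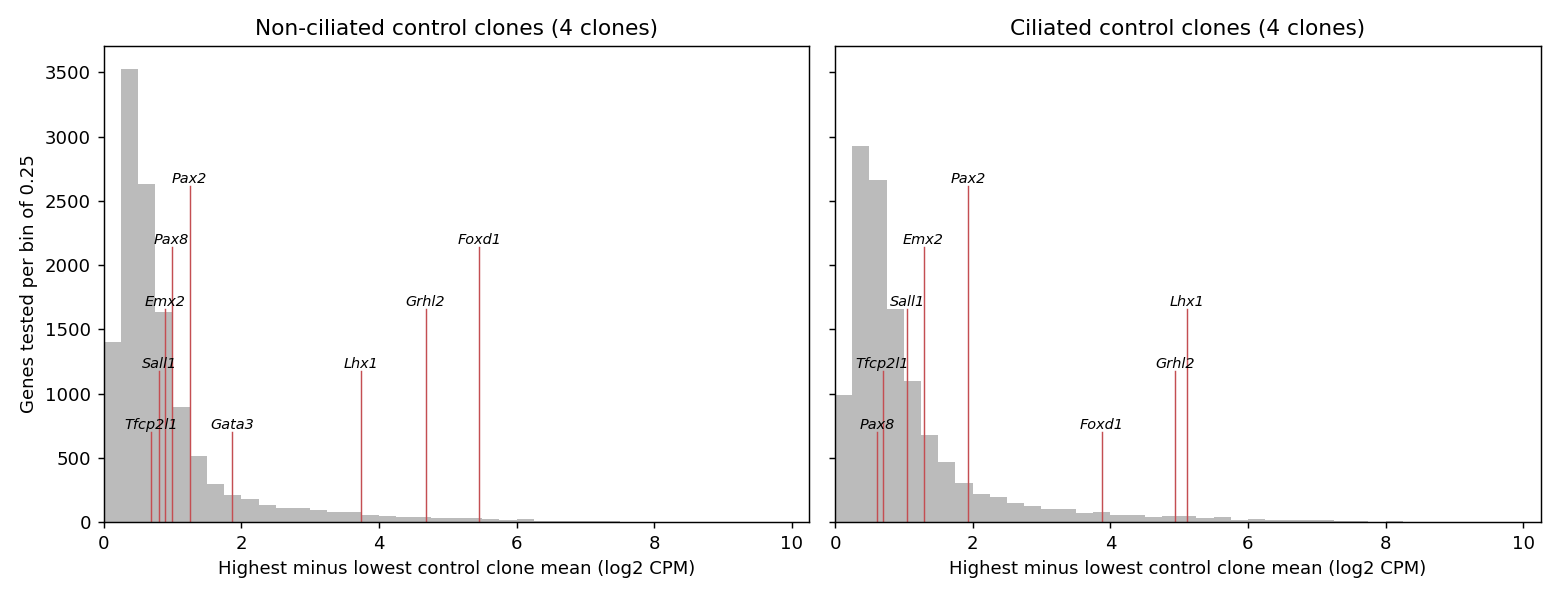
Number of genes tested by the range of clone mean log2 CPM among the 4 control clones of each state, in bins of 0.25, with the members marked by vertical lines whose height only separates their names. Foxd1, Grhl2 and Lhx1 lie in the right tail in both states, and Tfcp2l1 near the bulk of the genes, whose medians are 0.601 (non-ciliated) and 0.708 (ciliated).

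Of the 4 non-ciliated control clones, clone 2 was the highest for 5 of 9 members (55.6%), where it was the highest for 31.9% of all genes, and the lowest for 3 of 9, where it was the lowest for 34.3%. G7 was the highest of the ciliated controls for 5 of 8 members (62.5%), against 33.8% of all genes, and the lowest for 1, Grhl2. Pax2, Pax8, Emx2, Sall1 and Foxd1 were the 5 in both clones. Clone 2 was also the highest for 7 of 11 paralogs of the members (63.6%) and 14 of 30 other kidney transcription factors (46.7%). It was the lowest for 3 of 11 paralogs (27.3%) and 9 of 30 other factors (30%). G7 was the highest for 4 of 9 paralogs (44.4%) and 13 of 30 other factors (43.3%). It was the lowest for 3 of 9 paralogs (33.3%) and 12 of 30 other factors (40%), against 33.4% of all genes. Of the genes downstream of the members, clone 2 was the lowest for 7 of 11 tested (63.6%, against 34.3% of all genes) and G7 for 8 of 12 (66.7%, against 33.4%). Foxd1 is among the 5 members and was taken up with its spread between control clones known. Lhx1 was tested only through its high clones. The members and lists were chosen with earlier results of these data known, so nothing is read from these counts.

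Mutants were compared with controls in each state to ask which members the edited alleles go along with. A member was called in edgeR's quasi-likelihood test when its Benjamini-Hochberg adjusted p over all genes was under 0.05 and its level changed at least 2-fold, a log2 fold change of 1. In ciliated cells 0 of 8 members tested were called, where 0.644% of all genes were. At an unadjusted p under 0.05 there were 2, Pax8 and Tfcp2l1 (19.2% of all genes), and DESeq2 called 0. Tfcp2l1 was at a log2 fold change of 0.32 (standard error, SE, 0.13, adjusted p = 0.163 in edgeR) and Pax8 at -0.23 (SE 0.09, adjusted p = 0.17). Under the alternatives Tfcp2l1 ran from 0.0708 to 0.521 and Pax8 from -0.286 to 0.0351. Foxd1 was at -0.62 (SE 0.57, adjusted p = 0.608). The Wdr60 clone was below all 4 controls, while Wdr34 clone 1 and Wdr34 clone 3 were within their range. Its direction rested on single clones, since Foxd1 was at -2.19 (adjusted p = 0.0389) and called without Wdr34 clone 3, and at 0.77 (adjusted p = 0.257) without control clone G7. No member had mutant and control clone means that did not overlap, where 1.92% of genes had. The median log2 fold change was 0.09 over the 8 members and -0.01 over 11950 genes.

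In non-ciliated cells 1 of 8 members tested, Foxd1, fell in the mutants, where 2.57% of all genes fell. Its libraries were at 1.22, 8.91 and 16.6 CPM (lowest, median and highest of 8) in mutants and at 3.02, 27.7 and 157 CPM in controls, and the groups overlapped. The log2 fold change was -2.46 (SE 0.78, adjusted p = 0.0352 in edgeR). This call rested on control clone 2, without which the log2 fold change was -1.01 (adjusted p = 0.234). The call was also lost without the Wdr60 clone (-1.79, adjusted p = 0.259). Without the Wdr34 clone it was lost although the fold was larger (-3.71, adjusted p = 0.0505). Without any 1 replicate number it was lost with the fold about as large (-2.37 to -2.52, adjusted p 0.0635 to 0.127). With the libraries of a clone summed the log2 fold change was -2.44 (adjusted p = 0.976). The exact permutation test over the 6 clone means gave p = 0.533 (two-sided). Of the 5 proximal tubule markers Lrp2 was also called lower in this comparison (-4.0, SE 0.73, adjusted p = 0.000891). It was at 4.61 and 8.15 CPM in the mutants and 11.6 to 272 CPM in the controls, highest in clone 2 as Foxd1 was. Cubn, the other of them tested, was not called, at 17.9 and 24.1 CPM in the mutants and 13.2 to 23 CPM in the controls. The sum of the 5 markers was 22.5 and 32.2 CPM in the mutants and 25.7 to 285 CPM in the controls. Slc34a1 and Slc22a6 were at 0 in all libraries. The part of this sum in the Foxd1 difference was not tested. Pax2 at -0.68 (SE 0.19, adjusted p = 0.017) and Pax8 at -0.47 (SE 0.14, adjusted p = 0.025) passed the p threshold but not the limit on the fold. For Pax2 the means of both mutants, 116 and 102 CPM, were below those of all 4 controls, where 12.9% of genes had clone means that did not overlap, but AB at 117 CPM overlapped with the Wdr34 clone in single libraries. The exact permutation p for Pax2 was 0.133 (two-sided, smallest possible 0.0667, so that this design cannot pass 0.05). Lhx1 was not tested here. The median was -0.04 over the 8 members and 0.0022 over 12012 genes.

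Each mutant clone was also set against the controls of its state, which are shared between these comparisons. In the ciliated Wdr60 clone 1 of 8 members was called, Foxd1, which fell (log2 fold change -3.17, SE 0.94, adjusted p = 0.0478 in edgeR), where 1.29% of genes fell. This call was lost without control clone A4 (-3.44, adjusted p = 0.0507) and without any 1 replicate number (-3.03 to -3.3, adjusted p 0.142 to 0.17). In these fits the fold stayed about as large. With the libraries of a clone summed it was -3.18, in a fit that holds 1 sample of this clone and cannot decide a call. Over all alternatives the log2 fold change ran from -3.51 to -1.79. The non-ciliated Wdr60 clone had Foxd1 at -3.71 (SE 1.22, adjusted p = 0.0505), just over the threshold, so that 0 of 9 members were called, where 3.41% of genes were. At an unadjusted p under 0.05 there were 3 members, Pax2, Pax8 and Foxd1 (28.5% of all genes), and DESeq2 called 1, Foxd1 (adjusted p = 0.001). In edgeR Foxd1 was called without AB (-4.02, adjusted p = 0.0236) and without clone 3 (-4.11, adjusted p = 0.0108). Its weakest value under any alternative was -2.25. Pax8 was at -0.65 in this clone (adjusted p = 0.0296), under the limit on the fold.

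In the non-ciliated Wdr34 clone 0 of 9 members were called by edgeR or by DESeq2, where 2.24% of genes were, and 1, Pax2, had an unadjusted p under 0.05 (28.9% of all genes). Foxd1 was at -1.79 (SE 1.03, adjusted p = 0.259), and from -2.21 to -0.332 over the alternatives. In ciliated Wdr34 clone 1, 0 of 8 were called by either tool, where 0.679% of genes were, and 1, Tfcp2l1, had an unadjusted p under 0.05 (16.4% of all genes). Foxd1 was at -1.60 (SE 0.83, adjusted p = 0.349), and from -1.94 to -0.231 over the alternatives. Lhx1 was at 1.93 (SE 1.07, adjusted p = 0.381). Without D8, the control that shares its high level, Lhx1 was at 4.44 (adjusted p = 0.00673), but it then passed the filter only through this clone and had to differ.

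Wdr34 clone 3 stood apart from the other mutants. Gata3 was at 2.475, 3.194, 2.709 and 3.106 CPM in it against 0 to 1.527 CPM in the 16 ciliated control libraries, which did not overlap. With all libraries in the fit, Gata3 passed the count filter in ciliated cells only with this clone, so it had to differ here and its test is a description. The log2 fold change was 2.83 (SE 0.63, adjusted p = 0.00294 in edgeR), the 1 member past both thresholds of 9, where 3.64% of genes rose, and nothing is read from that count. With the libraries of a clone summed the log2 fold change was 2.85, in a fit that holds 1 sample of this clone and cannot decide a call. In limma's voomLmFit with the clone as a block it was 3.78 (adjusted p = 0.105). Tfcp2l1 was at 0.71 (SE 0.14, adjusted p = 0.000939), under the limit on the fold, and its 4 libraries were above all control libraries. Grhl2 was at -1.39 (SE 0.83, adjusted p = 0.256) and Foxd1 at 0.59 (SE 0.71, adjusted p = 0.607). Both were called without control clone G7, which has the same direction in both genes, Grhl2 at -1.78 (adjusted p = 8.24e-11) and Foxd1 at 1.99 (adjusted p = 4.47e-05). Lhx1 was at 2.64 without D8 (adjusted p = 0.0363), where it too passed the filter only through this clone. This clone also had the highest stroma marker sum, of which Dcn, an extracellular matrix proteoglycan, made 29.2 CPM. Meis1 (9.95 CPM) and Col1a1 (1.17 CPM) lay within the ciliated control clones (4.71 to 10.6 and 0.343 to 2.25 CPM). Pdgfra, Pdgfrb, Col1a2 and Col3a1 lay above them, but only at 0.785, 0.102, 0.0285 and 0.405 CPM. The part of these markers in the differences was not tested.

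**Figure D4:**
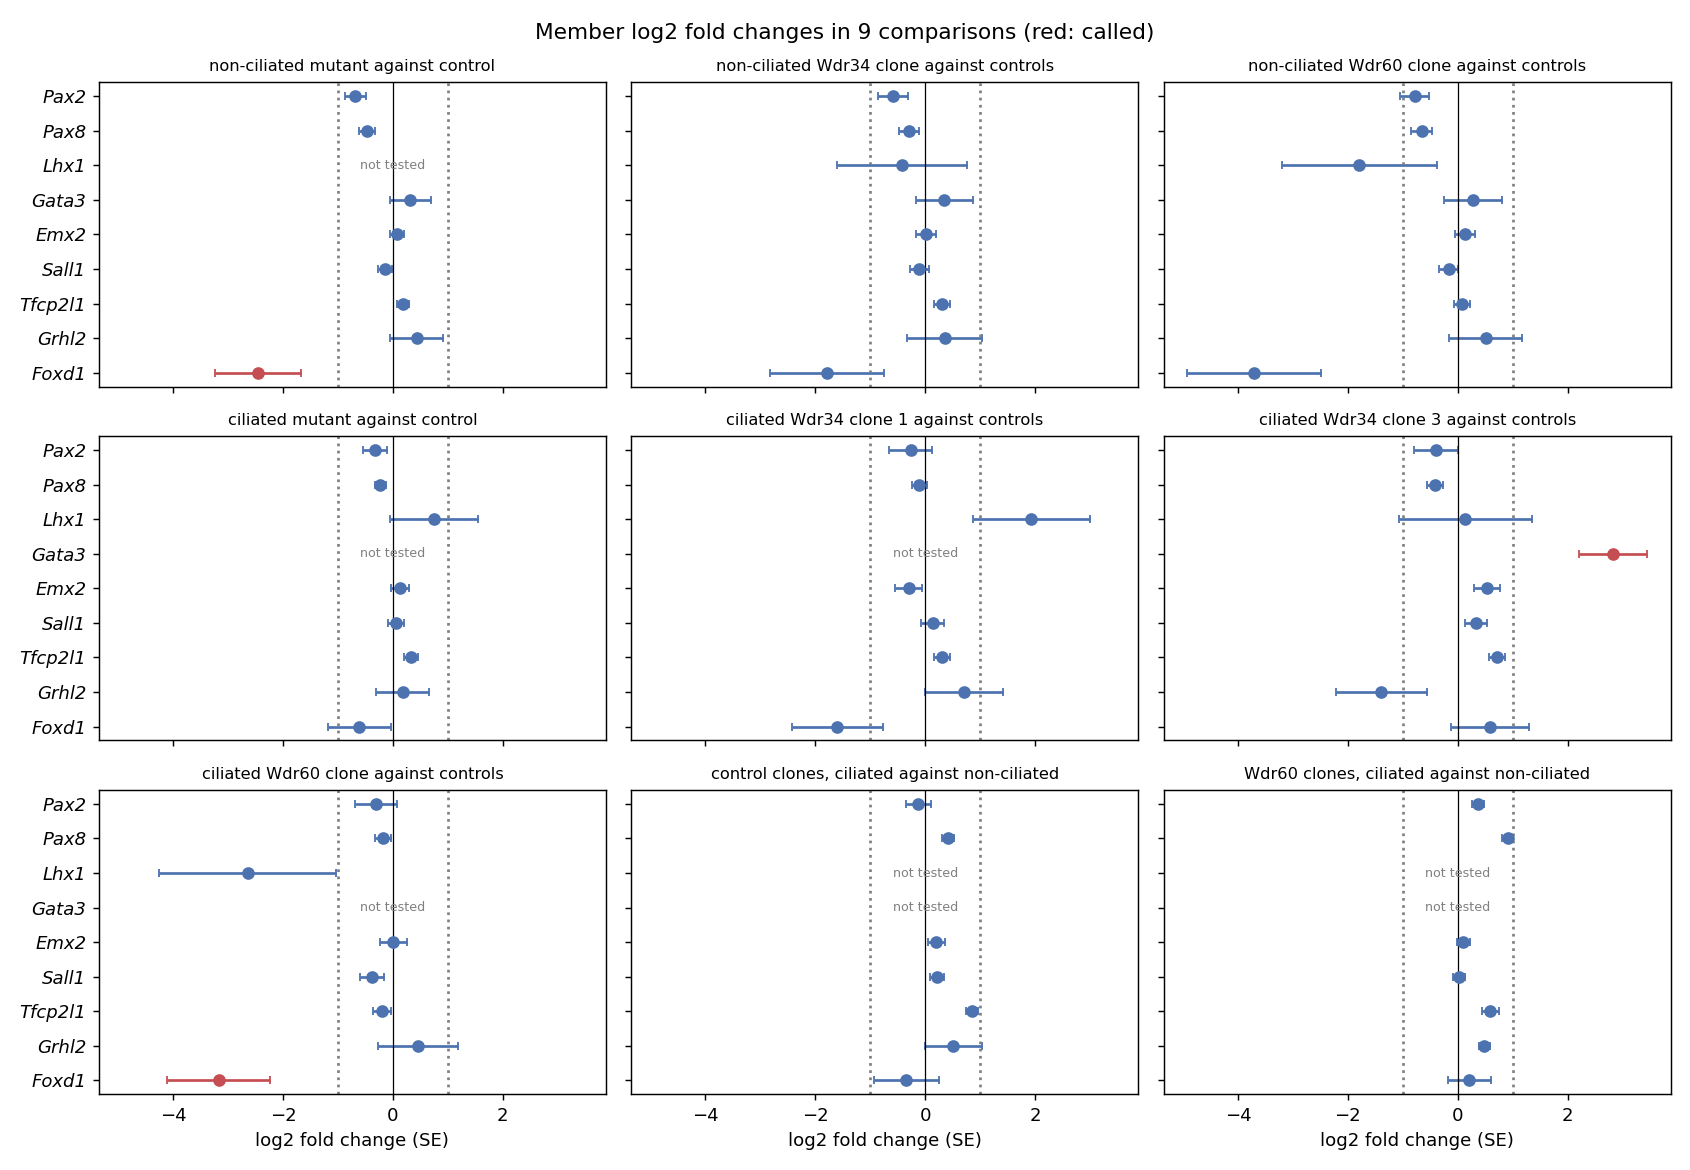
Log2 fold change of each member, 1 panel for each of 9 comparisons, with bars of 1 SE, dotted lines at the limit of 1 on either side and members called in red. Foxd1 is called in non-ciliated mutants (-2.46) and in the ciliated Wdr60 clone (-3.17) and Gata3 in Wdr34 clone 3 (2.83), where it passed the filter only through that clone, while no member is called in the panels that compare the states.

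The states were compared in the control clones and in the Wdr60 clones. In controls, 0 of 7 members tested were called, where 10.3% of genes were, by edgeR or by DESeq2, and 2 had an unadjusted p under 0.05 (64.4% of all genes). These were Tfcp2l1, higher in ciliated cells by 0.85 on the log2 scale (SE 0.10, adjusted p = 2.11e-08), and Pax8, higher by 0.41 (SE 0.11, adjusted p = 0.00239), both under the limit on the fold. For Tfcp2l1 the exact permutation test over 4 and 4 clone means gave p = 0.0286 (two-sided), the smallest p it can give, and 0.124 after adjustment over all genes, with 23.1% of genes having clone means that did not overlap. Foxd1 was at -0.34 (SE 0.58, adjusted p = 0.63), a value whose direction rested on single clones. Without G7 it was at -1.72 (adjusted p = 0.0113) and called, without control clone 2 at 1.10 (adjusted p = 0.0849), without D8 at 0.0011 (adjusted p = 0.999), and in voomLmFit with the clone as a block at 0.21 (adjusted p = 0.851). Lhx1 and Gata3 were not tested. The median log2 fold change was 0.21 over the 7 members and 0.02 over 11856 genes.

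Between the Wdr60 clones 0 of 7 members were called, where 15.1% of genes were, by edgeR or by DESeq2, and 4 had an unadjusted p under 0.05 (54.1% of all genes). All 4 were higher in ciliated cells, Pax8 by 0.91 (SE 0.11, adjusted p = 0.000107), Tfcp2l1 by 0.59 (SE 0.15, adjusted p = 0.00852), Grhl2 by 0.48 (SE 0.10, adjusted p = 0.00231) and Pax2 by 0.37 (SE 0.10, adjusted p = 0.0136). Foxd1 was low in both, at 4.59 and 4.0 CPM (log2 fold change 0.21, SE 0.38). The mutant effect itself was compared between the states by an interaction term, and 0 of 9 members were called by edgeR or DESeq2, where 1.19% of genes were, with 0 at an unadjusted p under 0.05 (14.4% of all genes). The largest was Foxd1 at 1.86 (SE 0.93, adjusted p = 0.353), which became 3.23 (adjusted p = 0.0141) without G7. Its smallest value under any alternative was 0.28.

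Genes around the members were then taken as 3 lists, and most of their calls between mutants and controls did not hold once the clone was taken into account. With the libraries of a clone summed, no gene at all was called in ciliated mutants (0 of 13243), non-ciliated mutants (0 of 13406) or the interaction (0 of 13994). This fit therefore cannot tell list genes from others. In single-clone comparisons it holds 1 sample of the mutant and decides nothing. In voomLmFit with the clone as a block, 9 of 12012 genes were called in non-ciliated mutants, 13 of 12456 in the ciliated Wdr60 clone and 0 of 12544 in the interaction, and no list gene was among them. In Wdr34 clone 3 that fit called 1 paralog, Pax9, and 3 other transcription factors, Esrrg and Eya1 among them, where 251 of 12553 genes were called. In the non-ciliated Wdr60 clone it called 1 transcription factor, Klf4, where 19 of 12371 genes were. The calls below are those of the library-level test.

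Paralogs of the members, 30 genes of the same families, were mostly silent, and 8 to 11 passed the filter in these comparisons. In ciliated mutants as a group 0 of 9 tested were called by edgeR, and in non-ciliated mutants 0 of 9, where 3.06% of genes were, with 2 at an unadjusted p under 0.05 in each (30.3% of all genes in non-ciliated mutants) and 0 called by DESeq2. In Wdr34 clone 3, 3 of 10 were called, where 5.8% of genes were, but Pax9 was among the genes tested only because of its level in this clone and had to differ. Lhx2, a LIM homeobox factor related to Lhx1, was at 0.0827 CPM in it and at 8.9 to 15.8 CPM in the ciliated controls. Pax9, a paired-box factor, was at 2.97 CPM, against 0 to 0.0778 CPM, and Gata2 rose (log2 fold change 1.35, SE 0.38, adjusted p = 0.0139). Lhx2 was at -1.73 in the ciliated Wdr60 clone (SE 0.24, adjusted p = 0.000162), the 1 paralog of 9 called there, where 1.93% of genes were. This call was lost in voomLmFit with the clone as a block. Between states in controls Gata2 was lower in ciliated cells (-2.39, SE 0.26, adjusted p = 2.55e-09) and Foxd2, a forkhead paralog of Foxd1, higher (1.34, SE 0.17, adjusted p = 4.13e-08). Grhl1, a paralog of Grhl2, was at 2.96 CPM in clone 2 and 3.41 CPM in G7, against 6.23 to 19.8 CPM in the other clones.

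Of 46 other transcription factors of kidney and epithelium, 28 to 32 passed the filter. In ciliated mutants 1 of 28 was called, where 0.644% of genes were, Irx1, an Iroquois factor of the nephron segments, which rose (1.12, SE 0.23, adjusted p = 0.00637), although Wdr34 clone 3 (14.9 CPM) lay below control clone H12 (17 CPM). In non-ciliated mutants 5 of 29 were called, where 3.06% of genes were. Irx1 rose (1.0, SE 0.23, adjusted p = 0.00496), while Ehf, an Ets factor of epithelia, fell (-3.39, SE 0.67, adjusted p = 0.00159), as did Zeb1 (-2.37, SE 0.67, adjusted p = 0.0189), Irx3 (-1.65, SE 0.57, adjusted p = 0.0495) and Nr3c2, the mineralocorticoid receptor (-1.33, SE 0.23, adjusted p = 0.000562). Only Ehf and Nr3c2 of these 5 had clone means that did not overlap between mutants and controls. For Irx3 control clone 3, at 2.97 CPM, lay below both mutants (9.15 and 9.14 CPM), while control clone 2 was at 69.9 CPM. Wdr34 clone 3 had 3 of 32 called, where 5.8% of genes were, of which Esrrg, a nuclear receptor, was at 6.39 CPM against 0 to 0.389 CPM in ciliated controls and was tested only because of this clone, so that it had to differ, Eya1 rose (1.77, SE 0.42, adjusted p = 0.00448) and Ehf was at -3.50 (SE 1.2, adjusted p = 0.0435). For Ehf control clone G7, at 0.948 CPM, lay below this clone (2.76 CPM), and the call was lost without any 1 replicate number. Between states in controls 7 of 29 were called, where 10.3% of genes were. Ehf, Sim1, a factor of the nephric duct, Nr3c2, Ovol1 and Irx3 were higher in ciliated cells, by 1.93, 1.60, 1.46, 1.16 and 1.09 on the log2 scale, and Zeb2 (-1.52) and Meis2 (-1.10) lower.

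Of 14 genes known to act downstream of the members, 11 or 12 passed the filter. In ciliated mutants 0 of 12 were called, by edgeR or DESeq2, where 0.644% of genes were, with 2 at an unadjusted p under 0.05 (19.2% of all genes). In non-ciliated mutants 2 of 11 were called, where 3.06% of genes were, and both fell, Gfra1, the co-receptor of the growth factor Gdnf in the ureteric bud (-1.89, SE 0.28, adjusted p = 9.23e-05), and Jag1, a Notch ligand (-1.25, SE 0.41, adjusted p = 0.0421). Jag1 overlapped, with control clone AB at 38.4 CPM and the Wdr34 mutant at 113 CPM. Gfra1 was also the 1 downstream gene called in the interaction (2.40, SE 0.53, adjusted p = 0.00911). This call was lost in both fits that take the clone into account, where no gene at all was called in the interaction. Between states in controls Cdh16 was the 1 of 11 called, where 10.3% of genes were, and higher in ciliated cells (1.08, SE 0.14, adjusted p = 6.76e-08). In the Wdr60 clones 8 of 12 were called, where 15.1% of genes were, and 6 of them were higher in ciliated cells. Wnt11, a secreted signal of the ureteric bud tip, was at 3.47 CPM in the ciliated and 0.0598 CPM in the non-ciliated clone, so that it was tested only through the ciliated libraries and had to be among these. Gfra1 (2.61, SE 0.25), Cdh16 (1.71, SE 0.09), Jag1 (1.58, SE 0.10), Epcam (1.24, SE 0.09) and Rab25 (1.02, SE 0.19) were also higher, while the Ets factors Etv4 (-2.14, SE 0.23) and Etv5 (-1.44, SE 0.15) were lower.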

How the data were processed

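The deposited files hold counts per gene symbol, which the authors made from paired-end reads aligned with Rsubread and counted with featureCounts, without normalization. The submitters' processing notes name GRCm38 and mm10, R 3.4.4 and DESeq2 1.18.1. Whether strand was used in counting, and what was done with multi-mapping reads, is not given in the sources used here, so counts of overlapping genes and near-identical copies are uncertain. The 9 members and all gene lists were chosen with earlier results of these data known. All 9 members are named, for each the 3 genes most like it where a result turns on it, and from each list up to 8 called genes with the largest fold changes in the comparisons described; the epithelial genes given for control clones 2 and G7 were picked after their values were seen.

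Tests were run with edgeR 4.0.16 in R 4.3.3. Low genes were removed by filterByExpr with default settings, libraries were scaled by TMM, and models were fitted with glmQLFit and tested with glmQLFTest (two-sided) over all genes, with Benjamini-Hochberg adjustment. The library was the sample, and clone means of log2 CPM (prior count 2) were compared by exact permutation. Standard errors (SE) of log2 fold changes were derived from F. Alternatives were DESeq2 1.42.0, limma 3.58.1 voomLmFit with the clone as a block, other scalings, filters, prior counts and fold limits, the replicate number as a block, clones summed, and leaving out each clone or replicate number. All 78 pairs of libraries of a clone differed beyond sampling noise (chi-square per gene 2 to 106), so none was counted as a repeat deposit. Replicate 1 stood apart from the others of its clone in AB (77.5 to 87.4), non-ciliated Wdr60 (51.8 to 56.8) and A4 (27.7 to 59.3). So did replicate 4 of G7 (44.6 to 69.9), and replicates 1 and 2 of ciliated Wdr60 against 3 and 4 (46.2 to 106). Replicate 1 of H12 stood apart by less (14.2 to 19.8). CPM per kb used GENCODE vM21 exons and coordinates GRCm38. The limit set by a count of 0 covers counting error only.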

Additional observations from a re-analysis of the deposited data

Results flagged for a closer look

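Values that lay far from the other 3 of their group by Dixon's gap test were found in 5 of 18 groups of control clones and in 13 of 117 groups of replicate libraries. Chance marks about 1 in 20 groups. The 5 include Foxd1 among ciliated controls, a gene taken up with its spread between control clones known. Nothing is therefore read from their number.

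Among ciliated control clones, Pax8 was at 419 CPM in G7 against 275 to 282 CPM in the other three, and Foxd1 at 117 CPM in G7 against 7.87 to 24.1 CPM. Lhx1 was at 4.26 CPM in D8 against 0.0164 to 0.564 CPM, and Gata3 at 1.13 CPM in D8 against 0.133 to 0.186 CPM. Among non-ciliated control clones, Lhx1 was at 1.57 CPM in clone 3 against 0.013 to 0.113 CPM.

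Among replicate libraries, the first of non-ciliated control AB was low for Pax8 (130 CPM against 156 to 161) and for Tfcp2l1 (56.3 CPM against 92.8 to 97). Sall1 was high in the first library of A4 (41.4 CPM against 35.1 to 35.8) and of H12 (30.2 CPM against 28.9 to 29.1). Pax2 was high in the first library of non-ciliated control 1 (191 CPM against 179 to 180) and low in the third of Wdr34 clone 3 (116 CPM against 125 to 126). Emx2 was high in the fourth library of the non-ciliated Wdr34 clone (69.3 CPM against 65.3 to 65.8). Grhl2 was low in the first library of control 2 (3.3 CPM against 4.15 to 4.3) and high in the second of control 3 (76.3 CPM against 73.7 to 74.1). Foxd1 was low in the third library of A4 (13.4 CPM against 16.1 to 16.2).

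For Lhx1 the far values are single counts: 0.052 CPM in the fourth library of control 1 and 0.0657 CPM in the second of A4, where the others had 0, and 0 CPM in the first library of control 2, where the others had 0.0494 to 0.0589 CPM.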

How the results depend on the processing

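The count of members called was recomputed under 222 alternatives over all comparisons, of which 184 left it within 1.5 times and 38 moved it. Wherever a member was called in the main fit or in an alternative, its sign was the same in both. Alternatives could differ from each other. In ciliated mutants Foxd1 was called at -2.19 without Wdr34 clone 3, but was at 0.774 without G7. Between states in controls it was called at -1.72 without G7, but was at 1.1 without clone 2. Neither of these positive values was called. In voomLmFit with the clone as a block, 0 members were called in non-ciliated mutants, the ciliated Wdr60 clone and Wdr34 clone 3, against 1 each. Foxd1 was at -1.56 and -2.41 and Gata3 at 3.78 there. With the libraries of a clone summed, Foxd1 was at -2.44 in non-ciliated mutants, where 0 of 13406 genes were called. In the other 2 comparisons the summed fit holds 1 sample of the mutant and decides nothing, with Foxd1 at -3.18 and Gata3 at 2.85. For the Wdr60 clone in ciliated cells, library size alone and no filter beyond 1 count also gave 0, with Foxd1 at adjusted p = 0.0533 and 0.0582. Without a limit on the fold change 3 members were called in non-ciliated mutants, 2 in Wdr34 clone 3, 2 between states in controls, 1 in the non-ciliated Wdr60 clone and 4 between the Wdr60 clones, where this called 1803 of 12012, 2609 of 12553, 7221 of 11856, 1483 of 12371 and 5642 of 11915 genes. DESeq2 called 1 in the non-ciliated Wdr60 clone, against 0. No filter beyond 1 count gave 1 between the Wdr60 clones.

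Leaving out each clone gave 0 to 1 members in ciliated and in non-ciliated mutants, in the ciliated and the non-ciliated Wdr60 clone, in Wdr34 clone 1, between states in controls and for the interaction, 1 to 3 in Wdr34 clone 3, and 7 to 8 and 7 to 9 in the F tests over ciliated and non-ciliated controls. Leaving out each replicate number gave 0 in non-ciliated mutants and in the ciliated Wdr60 clone, 0 to 1 between the Wdr60 clones and 8 to 9 in the ciliated F test. Without G7, Pax8 no longer differed among ciliated controls at the threshold (adjusted p = 0.825), nor Tfcp2l1 among non-ciliated controls without clone 2 (adjusted p = 0.256). Chosen after seeing the data were fits without clones 2 and G7 together, for the states and the interaction, and without G7 and Wdr34 clone 3 together, for ciliated mutants, and these called 0 members.

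Replicate numbers did not pair the samples, since in no comparison did every number correlate above 0.1. With the replicate block 0 members were called in non-ciliated mutants and in the ciliated Wdr60 clone, with Foxd1 at adjusted p = 0.0589 and 0.0854, and the block moved no other count of members. With 14.8 to 28.1 counts per CPM by the library totals before TMM scaling, Lhx1 and Gata3 differences among the low clones were not detectable at this depth.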
